A study of Mus musculus with 15 samples.

Results

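Agonist antibodies against 2 costimulatory receptors, OX40 (CD134) and 41BB (CD137), were added to a peptide antigen in mice, and the CD8+ T cells that answered were compared with cells given the antigen alone. The comparison took 10 of the 15 RNA-seq libraries of the series, 5 labelled Ag+Costim and 5 labelled Ag, and every gene that passed a filter on low counts. All cells came from OT-I transgenic mice on a C57BL/6J background, whose T cells carry 1 rearranged receptor for an ovalbumin peptide, on a line lacking Rag1 or Rag2 according to the methods. They were moved into C57BL/6J recipients that kept their own immune cells. Ag recipients received the peptide with a control rat IgG, and Ag+Costim recipients received the peptide with anti-OX40 and anti-41BB. Spleen and lymph nodes were taken after 4 days by the labels (the methods name a slightly shorter time), and CD8+ CD45.1+ Vα2+ Vβ5+ cells were sorted, as the methods describe. The other 5 libraries, Naive, came from OT-I cells that were never transferred. They entered the fit to share the estimate of the spread, and were themselves uneven (described below by library). The labels do not say which library came from which animal, nor its age, so p-values measure the spread between libraries.

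A CD8+ T cell that meets its antigen needs further signals to expand and to become an effector cell. OX40 and CD137 belong to the TNF receptor superfamily, carry no enzyme of their own, and bind TRAF adaptors that switch on NF-kB and survival genes. They appear on the surface after the T cell receptor has been engaged, so an agonist antibody acts on cells that are already primed. In such cells, growth programmes (ribosome production, amino acid and nucleotide supply, DNA replication) run beside effector genes such as granzymes and beside the loss of naive genes such as Il7r.

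The libraries were unequal in ways that touch every result below. The 5 Ag+Costim libraries were alike, with 12883084 to 16496692 counts and 51.9 to 52.7% of their reads counted in genes, whereas Ag libraries held 4865952 to 18004241 counts and 16.9 to 53.6%. Ag 3 stood apart, with the lowest total. The OT-I segment Trav14 took 67.4% of its alpha-chain variable counts, where the remaining Ag libraries ranged from 91.7 to 99.3% and Ag+Costim from 96.995 to 98.2%. Ag 2 and Ag 5 were made from smaller inputs (1.4 and 1.8 in the unit of the quality table, against 10 for all 5 Ag+Costim libraries). CD8 T cell markers were present in all 10 libraries, with summed levels of 5132 to 6170 CPM in Ag+Costim and 4789 to 7978 CPM in Ag. The summed CPM of 12 B cell markers was 135 to 248 in Ag+Costim and 98.3 to 1495 in Ag, and that of 7 erythroid markers was 72.9 to 109 in Ag+Costim and 58.0 to 1369 in Ag, each with its maximum in Ag 3. The largest sums outside Ag 3 were 595 and 172 CPM. No marker of these lists passed the test. On the lower side 11 of the 12 B cell and 5 of the 7 erythroid markers had an unadjusted p under 0.05, against 19.5% of all genes. Tfrc, which was placed in the erythroid list, went the other way, with an unadjusted p under 0.05 on the higher side. At 58.5 to 91.9 CPM it made up most of the erythroid sum in each Ag+Costim library, so that sum is no measure of globin RNA there. The globin gene Hba-a1 ranged from 1.30 to 9.56 CPM in Ag+Costim and from 3.82 to 349 CPM in Ag. The dendritic cell marker Cd209a was the only marker of any list at 0 in every Ag+Costim library. In contrast, the plasma cell marker Igha was higher in Ag+Costim without overlap, at 2.19 to 9.63 CPM against 0 to 1.09 CPM in Ag. Its log2 fold change was 3.75 ± 1.01 (FDR 0.0826), and 4.23% of all genes were higher without overlap. The summed CPM of 14 myeloid markers was 113 to 255 in Ag+Costim and 108 to 290 in Ag. Plasma cell, dendritic cell, NK cell and CD4 T cell sums overlapped as well. The part these cells had in other results was not tested. In such bulk samples, fewer cells of a type and less RNA per cell cannot be told apart. All Ag libraries and Ag+Costim 1 to 3 ran in lane 2, and Ag+Costim 4 and 5 in lane 3.

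Across all expressed genes, few differences passed the test used here, which estimated the spread over all 15 libraries, and the count varied with the fit (below). Of 17366 genes tested with edgeR's quasi-likelihood test (false discovery rate, FDR, under 0.05 by the Benjamini-Hochberg method), 5 rose (0.0288%) and 1 fell (0.00576%) in Ag+Costim. A wider set did not overlap between the groups. The lowest of the 5 Ag+Costim libraries exceeded the highest Ag library in CPM (counts scaled to library size and by TMM, edgeR's normalization) for 735 genes (4.23%), and the reverse held for 364 genes (2.1%). At an unadjusted p under 0.05, 1264 genes (7.28%) were higher and 3383 (19.5%) lower. The median log2 fold change of all tested genes was -0.10, and 42.1% of them had a positive value. Among the 9969 genes with a mean of at least 10 CPM in either group, that median was 0.06 and 56.1% had a positive value. Of these, 6.8% did not overlap on the higher side and 1.07% on the lower side. At an unadjusted p under 0.05, 11.9% of them were higher and 11.3% lower. Shares over all genes thus set a lower mark on the higher side, and a higher mark on the lower side, than those of well-expressed genes.

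Genes on the higher side were mostly well expressed and moved little. Protein-coding genes made up 85.9% of the 735, against 69.7% of all tested genes, and their median fold difference was 1.47, with 55 of them at 2-fold or more. The 364 genes on the lower side were mostly sparse, with a median of 4.23 CPM in the higher group against 90.0 CPM for the higher side, and 42.9% of them were protein coding. The spread was far larger in Ag. The median SD of log2(CPM + 1) over genes was 0.48 in Ag and 0.14 in Ag+Costim, and 94.7% of genes had the larger SD in Ag.

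**Figure D1:**
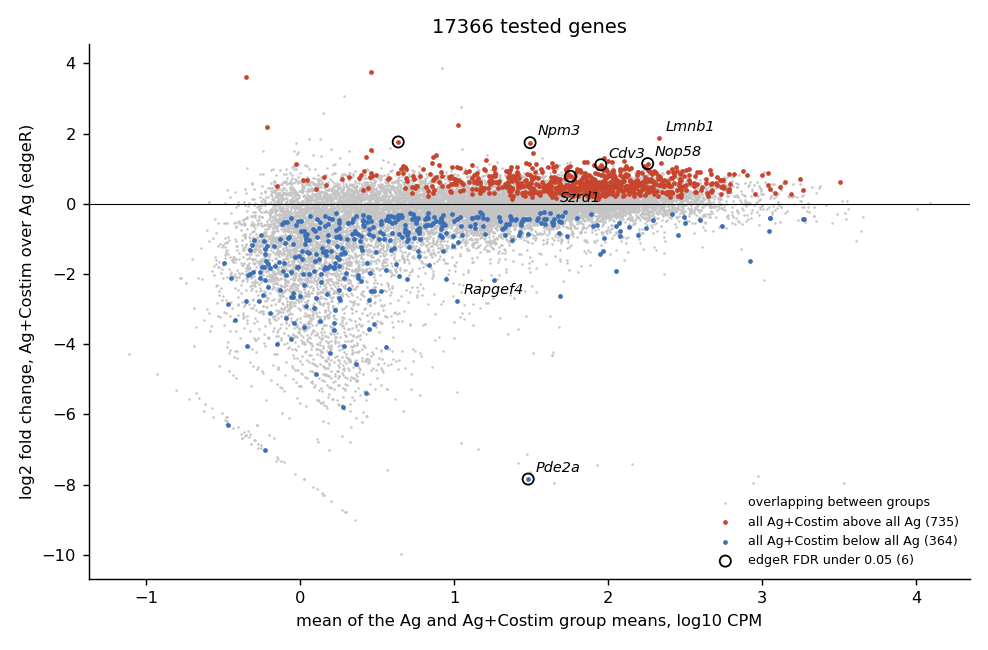
Each of the 17366 tested genes is placed by its mean level (log10 CPM, horizontal) and its edgeR log2 fold change (vertical); red points are the 735 genes with all 5 Ag+Costim libraries above all 5 Ag libraries, blue points the 364 genes with the reverse, and black rings the 6 genes past the threshold. Red points sit at high levels and mostly between 0 and 1 log2 unit, and blue points reach lower levels and larger differences.

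The counts moved with single libraries. Taken one at a time, Ag 1 lay below all 5 Ag+Costim libraries for 39.5% of genes and above them for 44.3%, and Ag 4 gave 38.6% and 43.5%. The nearest was Ag 2, with 29.2% and 29.4%, followed by Ag 5 with 33.7% and 32.97%. Without Ag 5 the test called 756 genes higher and 2817 lower, without Ag 2 it called 965 and 1714, without Ag 3 it called 44 and 71, and without Ag 1 none, where 763 and 2576 had an unadjusted p under 0.05. Non-overlapping genes numbered 1323 higher and 1266 lower without Ag 5, 1703 and 502 without Ag 2, 1169 and 973 without Ag 3, and 1278 and 229 without Ag+Costim 4. Within lane 2, 929 genes were higher and 402 lower without overlap and none passed the test, although 500 and 685 had an unadjusted p under 0.05. DESeq2 on the same counts called 664 genes higher (3.83%) and 1869 lower (10.8%).

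The 5 genes that rose were Cdv3, Szrd1, Npm3, its pseudogene Npm3-ps1, and Nop58. The CPM of Npm3 in Ag 1 to 5 was 9.47, 21.6, 12.8, 10.02 and 17.5, and in Ag+Costim 1 to 5 it was 49.2, 46.1, 53.3, 52.5 and 38.7. Npm3 is a nucleoplasmin-family histone chaperone found in nucleoli, and every Ag+Costim library held more than the highest Ag library, Ag 2. Its log2 fold change was 1.74 ± 0.26 (FDR 0.0406). Npm3-ps1, a processed copy whose reads cannot be fully told from those of Npm3, had a log2 fold change of 1.76 ± 0.28 (FDR 0.0481). Nop58 measured 79.99, 154, 123, 75.03 and 130.2 CPM in Ag 1 to 5 and 242, 225, 227, 303 and 247 CPM in Ag+Costim 1 to 5. Nop58, a core protein of the box C/D particles that methylate ribosomal RNA, thus had no overlap either, and the log2 fold change was 1.14 ± 0.18 (FDR 0.0481).

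Cdv3 measured 51.3, 70.3, 52.5, 62.4 and 46.6 CPM in Ag 1 to 5 and 106, 119, 133, 139 and 115 CPM in Ag+Costim 1 to 5. The Cdv3 difference was 1.11 ± 0.14 on the log2 scale (FDR 0.015), the smallest FDR of all genes, and its Ag libraries ran from Ag 5 to Ag 2 with all 5 well below Ag+Costim 1. Levels of Szrd1 were 37.97, 42.4, 43.1, 44.3 and 41.2 CPM in Ag 1 to 5 and 60.3, 75.7, 70.1, 77.7 and 76.04 CPM in Ag+Costim 1 to 5. Szrd1, which encodes a small protein with an SUZ RNA-binding domain, lay within a few CPM in all Ag libraries and had a log2 fold change of 0.78 ± 0.11 (FDR 0.0225).

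Pde2a, a phosphodiesterase that degrades cAMP and cGMP, was the only gene that fell. The CPM of Pde2a in Ag 1 to 5 was 139, 0.896, 5.44, 126 and 29.6, and in Ag+Costim 1 to 5 it was 0.133, 0.65, 0.281, 0.13 and 0.139. Levels in Ag spread over more than 2 orders of magnitude, and the lowest, Ag 2, was close to the highest Ag+Costim library. The log2 fold change was -7.84 ± 1.23 (FDR 0.0481), and Naive libraries averaged 171 ± 47.2 CPM. Within lane 2 the 6 genes kept their direction, with log2 fold changes of 1.09 for Cdv3, 0.73 for Szrd1, 1.80 for Npm3, 1.85 for Npm3-ps1, 1.05 for Nop58 and -7.41 for Pde2a, and the FDR was 0.628 for each.

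**Figure D2:**
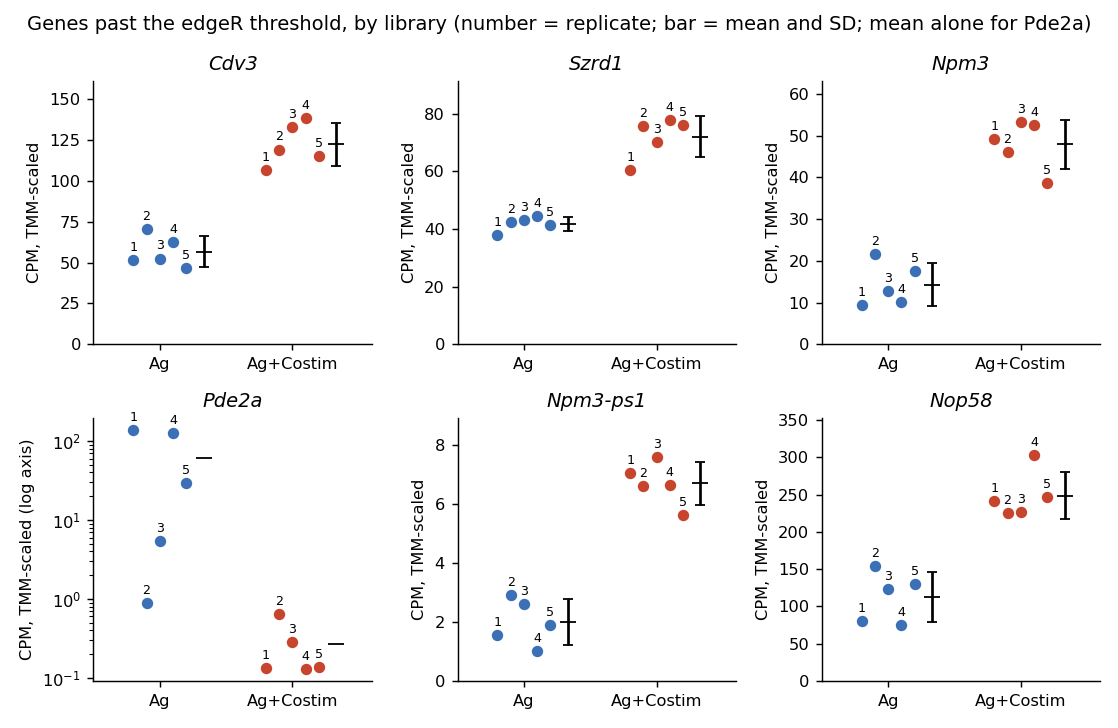
Each panel shows the TMM-scaled CPM of 1 of the 6 genes past the edgeR threshold in the 5 Ag (blue) and 5 Ag+Costim (red) libraries, numbered by replicate, with the group mean and SD beside them (Pde2a has a log axis and the mean alone). For Npm3 the Ag libraries lie at 21.6 CPM or below and the Ag+Costim libraries at 38.7 CPM or above.

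Promoter windows of the called genes are shown so that their sequence can be read beside that of a replication gene described below, Pola1. Windows run from 250 bases before to 50 bases after the start given by RefSeq (GRCm38.p6). Capitals mark matches on either strand to CACGTG (the E-box), TTTNNCGC (a form of the E2F site), TGACGTCA (the CRE) or CCAAT, where adjoining matches may share bases. Npm3-ps1 had no entry.
Cdv3 (chr9:103365731-103366030, minus strand): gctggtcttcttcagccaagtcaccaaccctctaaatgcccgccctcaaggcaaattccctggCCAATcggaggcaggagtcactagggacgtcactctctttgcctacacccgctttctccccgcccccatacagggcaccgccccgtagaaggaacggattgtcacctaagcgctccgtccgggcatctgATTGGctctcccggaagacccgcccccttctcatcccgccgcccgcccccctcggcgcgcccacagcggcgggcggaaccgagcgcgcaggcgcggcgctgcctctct
Szrd1 (chr4:141139747-141140046, minus strand): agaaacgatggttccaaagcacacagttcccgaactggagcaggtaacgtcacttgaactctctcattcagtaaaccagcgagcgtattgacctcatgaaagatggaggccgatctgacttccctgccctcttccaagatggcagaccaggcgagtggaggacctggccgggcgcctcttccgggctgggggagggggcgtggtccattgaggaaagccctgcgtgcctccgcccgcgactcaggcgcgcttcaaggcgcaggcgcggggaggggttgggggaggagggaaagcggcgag
Npm3 (chr19:45749516-45749815, minus strand): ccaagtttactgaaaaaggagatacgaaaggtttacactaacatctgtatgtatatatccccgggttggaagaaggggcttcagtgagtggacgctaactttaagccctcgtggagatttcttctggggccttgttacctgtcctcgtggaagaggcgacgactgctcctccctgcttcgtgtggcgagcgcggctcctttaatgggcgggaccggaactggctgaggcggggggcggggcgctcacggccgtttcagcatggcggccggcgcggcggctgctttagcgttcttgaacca
Nop58 (chr1:59684756-59685055, plus strand): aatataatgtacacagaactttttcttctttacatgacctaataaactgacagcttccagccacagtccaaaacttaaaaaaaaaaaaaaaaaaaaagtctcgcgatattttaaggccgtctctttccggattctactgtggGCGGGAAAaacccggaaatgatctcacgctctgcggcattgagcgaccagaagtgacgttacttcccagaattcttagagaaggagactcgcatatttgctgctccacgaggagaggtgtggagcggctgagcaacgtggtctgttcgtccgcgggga
Pde2a (chr7:101421441-101421740, plus strand): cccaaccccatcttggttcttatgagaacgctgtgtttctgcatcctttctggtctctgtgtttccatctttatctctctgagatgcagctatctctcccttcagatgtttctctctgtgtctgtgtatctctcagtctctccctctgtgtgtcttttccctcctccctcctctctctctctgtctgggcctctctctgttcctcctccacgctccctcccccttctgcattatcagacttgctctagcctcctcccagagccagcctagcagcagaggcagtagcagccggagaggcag
Pola1 (chrX:93632106-93632405, minus strand): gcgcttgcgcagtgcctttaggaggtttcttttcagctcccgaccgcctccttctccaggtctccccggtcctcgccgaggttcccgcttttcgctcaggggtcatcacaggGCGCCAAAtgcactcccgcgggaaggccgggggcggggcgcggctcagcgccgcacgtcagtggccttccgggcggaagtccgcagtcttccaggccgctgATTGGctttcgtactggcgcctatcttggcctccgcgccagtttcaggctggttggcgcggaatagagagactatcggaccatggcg

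No E-box or CRE match stood in any of these 6 windows. Nop58 and Pola1 each held 1 match to TTTNNCGC, Cdv3 held 2 matches to CCAAT and Pola1 held 1. Windows were found for 10091 of the tested genes. TTTNNCGC stood in 17.2% of the 512 windows of non-overlapping higher genes, in 8.28% of the 145 of lower genes and in 8.63% of all. CACGTG stood in 14.1%, 6.21% and 10.04%, CCAAT in 44.9%, 41.4% and 39.4%, and TGACGTCA in 2.93%, 0.69% and 3.22%. In the 55 windows of ribosome biogenesis genes, 20% held CACGTG and 12.7% held TTTNNCGC.

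Among other well-expressed genes without overlap, the 12 with the highest log2 fold change included genes of the nuclear envelope, replication, signalling and amino acid uptake. None of the 9 genes beyond Npm3, Nop58 and Cdv3 passed the test, and their FDR lay between 0.0807 and 0.184. Lmnb1 measured 22.5, 166, 115, 38.9 and 113 CPM in Ag 1 to 5 and 282, 360.2, 402, 331 and 298 CPM in Ag+Costim 1 to 5. Lmnb1, lamin B1 of the nuclear lamina, had the second highest log2 fold change of these, 1.88 ± 0.66 (FDR 0.103), and its highest Ag library, Ag 2, was well below the lowest Ag+Costim library. Slc7a5 measured 14.1, 68.6, 59.9, 11.9 and 67.1 CPM in Ag 1 to 5 and 87.1, 107, 99.4, 114 and 96.2 CPM in Ag+Costim 1 to 5. Slc7a5, the light chain of the large neutral amino acid transporter, showed a narrower gap, with Ag 1 and Ag 4 far below the rest of their group (log2 fold change 1.19 ± 0.47, FDR 0.134). Levels of Pola1 were 25.8, 88.1, 71.4, 33.3 and 40.2 CPM in Ag 1 to 5 and 115, 97.5, 98.3, 124 and 120.0 CPM in Ag+Costim 1 to 5. For Pola1, the catalytic subunit of DNA polymerase alpha, the values were 1.10 ± 0.43 and FDR 0.124.

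The CPM of Eml2 in Ag 1 to 5 was 8.52, 11.99, 5.01, 16.3 and 5.95, and in Ag+Costim 1 to 5 it was 21.997, 21.2, 24.6, 20.5 and 25.4. Eml2, a microtubule-associated protein, did not follow the order of the Ag libraries seen for Lmnb1, since its highest Ag library was Ag 4 (log2 fold change 1.24 ± 0.27, FDR 0.0807). Dusp4 measured 1.38, 5.03, 7.19, 2.29 and 5.07 CPM in Ag 1 to 5 and 8.75, 9.18, 10.7, 13.9 and 9.66 CPM in Ag+Costim 1 to 5. Dusp4, a phosphatase of MAP kinases induced by antigen receptor signals, had a log2 fold change of 1.34 ± 0.62 (FDR 0.184). Zwilch, a kinetochore protein, had 1.17 ± 0.53, Nefh, a neurofilament chain, 1.14 ± 0.47, Kctd17, an adaptor of a ubiquitin ligase, 1.38 ± 0.45, and Pcdhgc3, a protocadherin of a clustered locus whose members share exons, 2.24 ± 0.67.

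On the lower side, the 12 genes with the lowest log2 fold change after filtering included signalling, stress and mitochondrial genes, and beyond Pde2a their FDR lay between 0.0594 and 0.086. Rnasek measured 18.9, 41.1, 21.996, 49.8 and 16.6 CPM in Ag 1 to 5 and 5.83, 5.93, 5.90, 6.16 and 9.45 CPM in Ag+Costim 1 to 5. Rnasek, a small membrane protein linked to the vacuolar proton pump, did not overlap by a wide margin, with the lowest Ag library at 16.6 CPM and the highest Ag+Costim library at 9.45 CPM (log2 fold change -2.16 ± 0.37, FDR 0.0594). Levels of Pik3ca were 31.3, 24.5, 48.8, 34.8 and 19.8 CPM in Ag 1 to 5 and 15.4, 16.6, 14.4, 13.4 and 17.3 CPM in Ag+Costim 1 to 5. Pik3ca, the catalytic p110 alpha subunit of PI3 kinase, differed by -1.04 ± 0.20 (FDR 0.0807). The CPM of Rapgef4 in Ag 1 to 5 was 36.2, 4.00, 10.7, 34.9 and 4.88, and in Ag+Costim 1 to 5 it was 2.98, 3.25, 3.30, 0.779 and 2.92. Rapgef4, a guanine nucleotide exchange factor that cAMP switches on, had -2.78 ± 0.68, and its Ag 2 and Ag 5 libraries lay just above the Ag+Costim libraries.

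Ephx1 measured 162, 26.7, 24.2, 185 and 20.3 CPM in Ag 1 to 5 and 18.2, 12.4, 17.3, 7.40 and 13.1 CPM in Ag+Costim 1 to 5. Ephx1, the microsomal epoxide hydrolase, had a log2 fold change of -2.62 ± 0.64, and Ag 1 and Ag 4 held most of its signal. Tsc22d3 measured 169, 70.97, 79.7, 275 and 70.8 CPM in Ag 1 to 5 and 69.04, 68.6, 43.2, 37.2 and 44.8 CPM in Ag+Costim 1 to 5. Tsc22d3 (GILZ), a glucocorticoid-induced gene, differed by -1.34 ± 0.42 (FDR 0.086), with Ag 2 and Ag 5 within 2 CPM of the highest Ag+Costim library. Ypel3 had -1.91 ± 0.51, Selenop, a secreted selenoprotein, -1.43 ± 0.43, Letm2, a mitochondrial inner membrane protein, -1.36 ± 0.32, and Ddit3 (CHOP), a stress-induced transcription factor, -1.10 ± 0.31.

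Transcripts of the mitochondrial genome stood out among genes lower without overlap, but not by their count of low p-values. Levels of mt-Rnr1 were 1516, 677, 2148, 1177 and 751 CPM in Ag 1 to 5 and 454, 447, 450.2, 309.6 and 374 CPM in Ag+Costim 1 to 5. The 12S ribosomal RNA gene mt-Rnr1 had a log2 fold change of -1.62 ± 0.37 (FDR 0.0807), and the transfer RNA gene mt-Ts1 had -0.96 ± 0.24. Of the 35 tested mitochondrial genes, a set chosen after these values were seen, 7 were lower without overlap (20%, against 2.1% of all genes). None was higher without overlap. On the lower side 6 of the 35 had an unadjusted p under 0.05, where 19.5% of all genes did. The 13 protein-coding ones all had a negative log2 fold change, with a median of -0.38, where 42.1% of all genes had a positive one. The summed share of the 35 genes in the CPM of a library was 2.29, 1.85, 2.92, 2.40 and 1.99% in Ag 1 to 5 and 1.75, 1.57, 1.77, 1.47 and 1.69% in Ag+Costim 1 to 5, so the groups did not overlap.

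The receptors that the antibodies engage were not detectably different at the RNA level. The CPM of Tnfrsf9 in Ag 1 to 5 was 39.004, 99.1, 71.6, 49.2 and 115, and in Ag+Costim 1 to 5 it was 83.4, 103, 88.8, 105 and 98.97. Tnfrsf9, which encodes CD137, was lowest in Ag 1, 4 and 3, while Ag 2 and Ag 5 lay within or above the Ag+Costim range (log2 fold change 0.35 ± 0.53, FDR 0.687). Tnfrsf4 measured 4.65, 0.827, 4.36, 6.30 and 8.83 CPM in Ag 1 to 5 and 4.31, 4.23, 8.93, 8.63 and 5.63 CPM in Ag+Costim 1 to 5. Tnfrsf4, which encodes OX40, was low in all libraries and overlapped (log2 fold change 0.34 ± 0.49, FDR 0.671). Of the 17 measured costimulatory receptors and ligands, none passed the test or separated the groups, and the median log2 fold change was -0.24. On the lower side 5 had an unadjusted p under 0.05, against 19.5% of all genes and 11.3% of those with at least 10 CPM. Tnfsf8 measured 89.9, 18.5, 18.1, 101 and 12.7 CPM in Ag 1 to 5 and 12.9, 15.2, 18.1, 9.93 and 11.1 CPM in Ag+Costim 1 to 5. Tnfsf8, the ligand of CD30, was the member with the smallest p (-1.84 ± 0.52, FDR 0.0825). Cd27, a TNF receptor of naive and memory cells, had -0.54 ± 0.18, Tnfrsf18 (GITR) had -0.37 ± 0.15 and Cd28 had -0.24 ± 0.15.

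Downstream of these receptors, none of the 28 TRAF and NF-kB genes passed the test or separated the groups. Of these, 4 had an unadjusted p under 0.05 on the higher side and 3 on the lower side (7.28% and 19.5% of all genes), and their median was -0.10, the same as over all genes. Levels of Traf1 were 397, 177, 154, 447 and 160.2 CPM in Ag 1 to 5 and 188, 173, 208, 130.2 and 156 CPM in Ag+Costim 1 to 5. Traf1, an adaptor and NF-kB target, overlapped, with Ag 1 and Ag 4 the highest of all libraries (log2 fold change -0.64 ± 0.29, FDR 0.171). The CPM of Traf2 in Ag 1 to 5 was 67.5, 66.7, 72.3, 70.2 and 86.8, and in Ag+Costim 1 to 5 it was 86.99, 84.5, 88.3, 82.6 and 85.2. Traf2, the adaptor that both receptors bind, had 0.23 ± 0.09 (FDR 0.127), and only Ag 5 reached the Ag+Costim range. Chuk, the IKK alpha kinase, had 0.34 ± 0.11, Traf6 0.41 ± 0.16, Nfkbie, an inhibitor of NF-kB, -0.49 ± 0.21, Nfkb1 -0.09 ± 0.14 and Nfkb2 0.19 ± 0.19.

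Factors that the T cell receptor induces include the AP-1, NFAT, EGR and NR4A families. None of the 17 measured passed the test or separated the groups, and their median was -0.26. On the lower side 4 had an unadjusted p under 0.05, against 19.5% of all genes and 11.3% of those with at least 10 CPM. Egr2 measured 26.9, 3.86, 3.70, 37.9 and 0 CPM in Ag 1 to 5 and 2.05, 2.19, 2.81, 1.69 and 1.25 CPM in Ag+Costim 1 to 5. Egr2, an antigen receptor response gene tied to anergy, held nearly all its Ag signal in Ag 1 and Ag 4 (log2 fold change -2.86 ± 0.95, FDR 0.0929). Egr1 measured 58.7, 12.3, 8.71, 70.2 and 9.27 CPM in Ag 1 to 5 and 8.08, 10.2, 15.5, 9.08 and 11.4 CPM in Ag+Costim 1 to 5. Egr1 was also highest in Ag 4 and Ag 1 (-1.56 ± 0.56, FDR 0.109). Batf (0.26 ± 0.25), lowest in those libraries, and Jund (-0.26 ± 0.24) differed by about their SE. Of the 25 genes of proximal T cell receptor signalling, none passed or separated, 2 had an unadjusted p under 0.05 on the lower side, against 19.5% of all genes (Cd3d -0.50 ± 0.15, Cd3g -0.57 ± 0.21), and the median was -0.09; Cd8b1 had -0.27 ± 0.15 and Cd247 -0.24 ± 0.14.

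Effector genes overlapped. Levels of Gzmb were 9.73, 733, 435, 18.5 and 745 CPM in Ag 1 to 5 and 672, 701, 253, 523 and 616 CPM in Ag+Costim 1 to 5. Gzmb, granzyme B, ranged over nearly 2 orders of magnitude within Ag, where Ag 2 and Ag 5 were above every Ag+Costim library (log2 fold change 0.51 ± 1.00, FDR 0.76). The CPM of Prf1 in Ag 1 to 5 was 81.97, 75.1, 79.5, 82.8 and 95.9, and in Ag+Costim 1 to 5 it was 75.001, 75.3, 52.3, 45.4 and 76.04. Perforin (Prf1) overlapped, with Ag+Costim 3 and 4 the lowest libraries (-0.36 ± 0.14, FDR 0.129). Of 14 cytotoxic molecules none passed or separated, 2 had an unadjusted p under 0.05 on the lower side (19.5% of all genes), and the median was 0.10. Srgn, the proteoglycan of cytotoxic granules, had -0.49 ± 0.16, Ctsw -0.30 ± 0.17 and Ctsc, which activates granzymes, 0.21 ± 0.17.

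No cytokine or chemokine gene passed the test. Ifng measured 10.8, 4.41, 5.01, 13.1 and 10.6 CPM in Ag 1 to 5 and 5.63, 5.36, 6.75, 5.71 and 6.12 CPM in Ag+Costim 1 to 5. Interferon gamma (Ifng) overlapped, with -0.58 ± 0.43 (FDR 0.397), and Il2 had -0.07 ± 0.65. Tgfb1 measured 58.6, 49.5, 70.1, 67.7 and 61.04 CPM in Ag 1 to 5 and 87.7, 92.8, 92.8, 97.7 and 95.2 CPM in Ag+Costim 1 to 5. Tgfb1, which encodes TGF-beta 1, was the only one of 13 measured without overlap, where 4.23% of all genes were (0.60 ± 0.16, FDR 0.0807). The median of this list was -0.58, and Lta (-0.83 ± 0.29), Ltb (-0.74 ± 0.30) and Ccl4 (-1.66 ± 0.65) were its members with the next smallest p-values, all on the lower side.

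Transcription factors of effector cells leaned higher. Of 15 measured, 14 had a positive log2 fold change, against 42.1% of all genes and 56.1% of those with at least 10 CPM. Their median was 0.53, 3 were higher without overlap (Irf4, Bhlhe40 and E2f2, against 4.23% of all genes) and none passed the test. At an unadjusted p under 0.05 only 1 was higher, against 7.28% of all genes. Levels of Tbx21 were 80.2, 299, 248, 103 and 328 CPM in Ag 1 to 5 and 337, 347, 322, 397 and 355 CPM in Ag+Costim 1 to 5. Tbx21 (T-bet), which drives effector differentiation, overlapped through Ag 5 (0.73 ± 0.47, FDR 0.321). Runx3, a CD8 lineage factor, had 0.26 ± 0.10, Prdm1 (Blimp-1) 0.67 ± 0.76, Rora 0.51 ± 0.29 and Stat4 0.14 ± 0.09. Of 31 cytokine receptor and JAK-STAT genes, 4 were higher without overlap (Il2rb, Il12rb2, Il18rap and Stat5a) and 1 was lower (Ifngr2), against 4.23% and 2.1% of all genes. The CPM of Stat5a in Ag 1 to 5 was 58.8, 69.7, 75.8, 68.9 and 55.9, and in Ag+Costim 1 to 5 it was 87.7, 84.3, 90.7, 86.7 and 87.6. Stat5a, which relays interleukin 2 signals, had 0.41 ± 0.10 (FDR 0.0807). Il2rb measured 809, 1019, 965, 983 and 1028 CPM in Ag 1 to 5 and 1192, 1318, 1236, 1387 and 1257 CPM in Ag+Costim 1 to 5. Il2rb, the beta chain of the interleukin 2 and 15 receptors, had 0.41 ± 0.21. Il18rap measured 60.8, 113, 94.1, 78.9 and 108 CPM in Ag 1 to 5 and 139, 147, 133, 139 and 146 CPM in Ag+Costim 1 to 5. Il18rap, an accessory chain of the interleukin 18 receptor, had 0.63 ± 0.29. Levels of Il2ra were 2.58, 35.5, 28.5, 3.44 and 38.2 CPM in Ag 1 to 5 and 43.9, 50.8, 26.4, 88.95 and 54.3 CPM in Ag+Costim 1 to 5. Il2ra (CD25) overlapped, with Ag 1 and Ag 4 near 3 CPM (1.29 ± 0.70, FDR 0.251).

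Genes of naive and memory cells leaned lower but separated in no case. Of 29 measured, 16 had an unadjusted p under 0.05 on the lower side, against 19.5% of all genes, the median was -0.82, and none passed the test. The CPM of Ccr9 in Ag 1 to 5 was 55.3, 2.62, 19.6, 15.2 and 0.626, and in Ag+Costim 1 to 5 it was 2.45, 0.813, 0.843, 1.30 and 1.04. Ccr9, a gut homing receptor of naive CD8+ cells, had the lowest log2 fold change of the list, -3.83 ± 0.95 (FDR 0.0807), and Naive libraries averaged 221 ± 122 CPM. Il7r measured 199, 101, 89.5, 256 and 97.2 CPM in Ag 1 to 5 and 84.5, 98.3, 93.6, 71.2 and 71.7 CPM in Ag+Costim 1 to 5. Il7r, the interleukin 7 receptor, had -0.83 ± 0.33, Tcf7 (TCF-1) -0.53 ± 0.32, Bach2 -1.68 ± 0.46, Itgae (CD103) -2.84 ± 0.80 and Tdrp -2.61 ± 0.71.

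Of 23 inhibitory receptors and anergy genes, 5 had an unadjusted p under 0.05 on the lower side. That share was 19.5% over all genes and 11.3% over those with at least 10 CPM. None of the 23 separated the groups and their median was -0.53. Izumo1r measured 196, 13.1, 14.6, 206 and 10.3 CPM in Ag 1 to 5 and 9.41, 5.04, 12.4, 4.09 and 7.78 CPM in Ag+Costim 1 to 5. Izumo1r (folate receptor 4), a marker of anergic and regulatory T cells, was more than 10 times higher in Ag 1 and Ag 4 than in any other library (-3.51 ± 0.81, FDR 0.0807). Levels of Nt5e were 97.9, 9.51, 23.1, 153 and 6.70 CPM in Ag 1 to 5 and 11.1, 8.13, 12.6, 10.8 and 8.13 CPM in Ag+Costim 1 to 5. Nt5e (CD73), which makes adenosine, was also highest in Ag 1 and Ag 4 (-2.52 ± 0.69, FDR 0.0807), as were Cd200 (-1.95 ± 0.66) and the factor Ikzf2 (Helios, -1.94 ± 0.58). The CPM of Pdcd1 in Ag 1 to 5 was 149.8, 184, 167, 247 and 226, and in Ag+Costim 1 to 5 it was 164, 191, 229, 223 and 172. Pdcd1 (PD-1) was highest in Ag 4 and lowest in Ag 1, with 0.01 ± 0.56 (FDR 0.993).

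Of 16 BCL2 family genes, which set the threshold of cell death, Bak1 was higher without overlap (4.23% of all genes), 2 had an unadjusted p under 0.05 on the higher side and 3 on the lower side (7.28% and 19.5% of all genes), and the median was -0.03. Bcl2l1 measured 26.3, 43.3, 41.4, 26.6 and 34.7 CPM in Ag 1 to 5 and 46.6, 43.9, 49.9, 41.3 and 50.9 CPM in Ag+Costim 1 to 5. Bcl2l1 (BCL-XL), an antiapoptotic target of costimulation, overlapped only through Ag 2 and Ag 3 (0.44 ± 0.21, FDR 0.197). Bcl2 measured 126, 41.3, 60.5, 101 and 28.2 CPM in Ag 1 to 5 and 48.1, 42.8, 31.3, 21.3 and 37.8 CPM in Ag+Costim 1 to 5. Bcl2 itself had -0.98 ± 0.40 (FDR 0.142), Bcl2l11 (BIM), which opposes it, -1.51 ± 0.47, and Bid 0.32 ± 0.13.

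**Figure D3:**
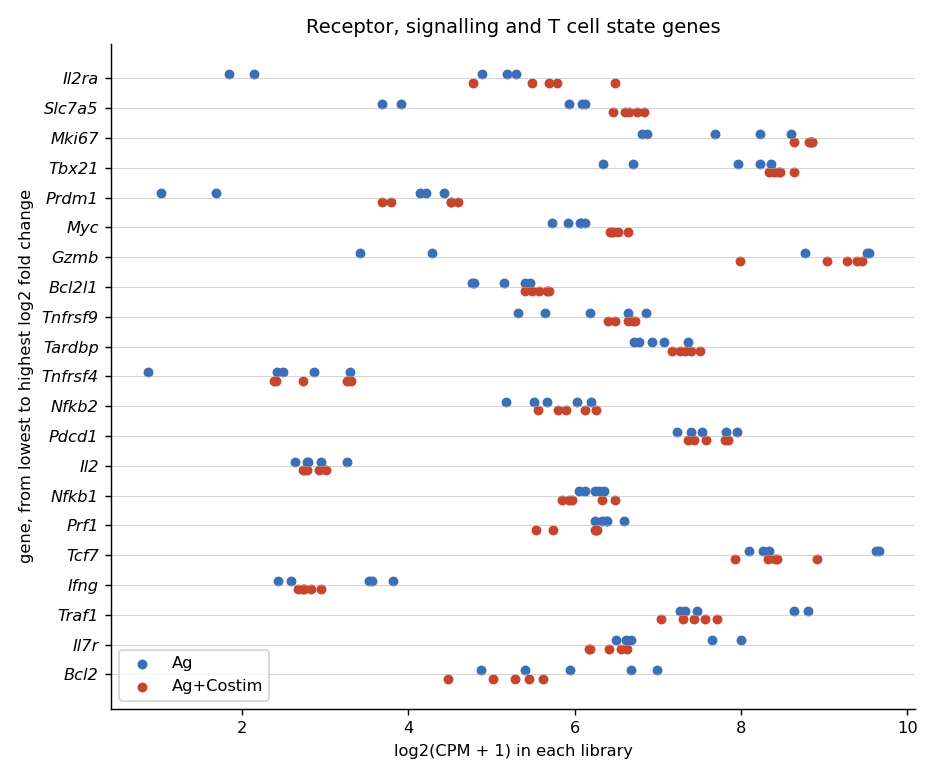
The 21 genes of the receptors, their signalling and the T cell state are listed from the lowest (bottom) to the highest log2 fold change, and each point is 1 library's log2(CPM + 1), blue for Ag and red for Ag+Costim. The red points of a gene lie close together, while the blue points of Gzmb, Il2ra and Prdm1 are spread widely and overlap them.

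In cAMP signalling, Pde2a and Rapgef4 were 2 of 23 members lower without overlap, Prkar1a (a regulatory subunit of protein kinase A) was higher, against 2.1% and 4.23% of all genes. At an unadjusted p under 0.05, 6 were lower and 2 higher, against 19.5% and 7.28%. Levels of Adora2a were 26.1, 22.1, 13.3, 38.4 and 16.3 CPM in Ag 1 to 5 and 47.04, 42.5, 54.1, 37.05 and 48.1 CPM in Ag+Costim 1 to 5. Adora2a, an adenosine receptor that raises cAMP, was higher in Ag+Costim but for an overlap with Ag 4 (0.97 ± 0.25, FDR 0.0807). Pde7a, another cAMP phosphodiesterase, had -0.94 ± 0.33. The median of the list was -0.44.

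The CPM of Myc in Ag 1 to 5 was 66.2, 66.4, 59.7, 52.05 and 68.6, and in Ag+Costim 1 to 5 it was 84.9, 91.2, 86.6, 87.1 and 98.97. Myc, the transcription factor that drives growth of activated T cells, did not overlap, and Ag 5 was the highest of the Ag libraries (0.52 ± 0.17, FDR 0.0903). Naive libraries had a mean above both groups, 128 ± 35.9 CPM, but ranged from 82.8 to 160 CPM, and the lowest was below every Ag+Costim library. Myc was the only one of 14 members of the MYC network without overlap between Ag and Ag+Costim, where 4.23% of all genes were higher without overlap. At an unadjusted p under 0.05, 4 of the 14 were higher and 1 lower, against 7.28% and 19.5% of all genes. The median of the 14 was -0.01, and that of members with at least 10 CPM was 0.22. Mxd4, an antagonist of MYC, had -1.96 ± 0.51, while the MYC cofactors Ruvbl1 (0.62 ± 0.27) and Ruvbl2 (0.68 ± 0.30) were lowest in Ag 1 and Ag 4.

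Ribosome biogenesis held 2 of the called genes and many low p-values. Of 63 measured members, 2 rose (Npm3 and Nop58), 37 had an unadjusted p under 0.05 on the higher side against 7.28% of all genes, 13 did not overlap against 4.23%, and none was lower by either measure. Among genes with at least 10 CPM these shares were 11.9% and 6.8%. The median log2 fold change of the 63 members was 0.47. Ftsj3 measured 63.3, 74.2, 93.2, 60.5 and 102 CPM in Ag 1 to 5 and 122, 123, 129.7, 152 and 137 CPM in Ag+Costim 1 to 5. Ftsj3, a methyltransferase of the large subunit precursor, had 0.76 ± 0.15 (FDR 0.0807). Utp15 measured 41.2, 45.96, 57.5, 39.7 and 49.1 CPM in Ag 1 to 5 and 71.4, 67.6, 68.03, 80.9 and 78.4 CPM in Ag+Costim 1 to 5. Utp15, a small subunit processome protein, had 0.65 ± 0.13 (FDR 0.0807). DESeq2 called 22 members higher and none lower, against 3.83% and 10.8% of all genes.

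Translation factors and tRNA synthetases followed. Of 44 translation factors, 8 were higher without overlap, against 4.23% of all genes, and the median was 0.36. Levels of Eif3a were 204, 269.7, 268, 226 and 250.2 CPM in Ag 1 to 5 and 329, 323, 327, 368 and 353 CPM in Ag+Costim 1 to 5. Eif3a, the largest eIF3 subunit, had 0.48 ± 0.10 (FDR 0.0807), and Eif4g1 (0.79 ± 0.21), Eif4g2 (0.63 ± 0.16) and the ribosome recycling factor Abce1 (0.73 ± 0.20) were also without overlap. Of 24 tRNA synthetase genes, 9 were higher without overlap (4.23% of all genes), 15 had an unadjusted p under 0.05 on the higher side (7.28%) and the median was 0.51. The CPM of Iars in Ag 1 to 5 was 70.9, 108, 143, 77.9 and 83.1, and in Ag+Costim 1 to 5 it was 157, 158, 152, 203 and 183. Iars had 0.82 ± 0.21 (FDR 0.0807), Nars 0.66 ± 0.17, Lars 0.50 ± 0.14 and Cars 0.68 ± 0.21. In amino acid supply and ATF4 targets, 5 of 27 were higher and 1 (Ddit3) lower without overlap, against 4.23% and 2.1% of all genes, the median was 0.34, and Aldh18a1 (proline synthesis) had 0.51 ± 0.14, the lactate transporter Slc16a1 0.72 ± 0.26 and Slc7a6 0.30 ± 0.11.

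Metabolic lists leaned the same way by smaller counts. Of 30 nucleotide synthesis genes, 29 had a positive log2 fold change with a median of 0.51 (42.1% of all genes were positive), and 3 did not overlap, against 4.23%. Pfas measured 10.1, 15.5, 24.2, 8.09 and 20.7 CPM in Ag 1 to 5 and 26.5, 27.1, 28.2, 35.9 and 32.9 CPM in Ag+Costim 1 to 5. Pfas, of purine synthesis, had 0.95 ± 0.30 (FDR 0.0876), and Cad, which starts pyrimidine synthesis, 1.07 ± 0.34, Impdh1 0.40 ± 0.14 and Atic 0.45 ± 0.19. Of 26 cholesterol and fatty acid genes, 6 did not overlap on the higher side, against 4.23% of all genes, and the median was 0.39. Hmgcs1 measured 55.02, 72.5, 63.8, 52.5 and 63.3 CPM in Ag 1 to 5 and 106, 87.05, 92.8, 84.1 and 99.6 CPM in Ag+Costim 1 to 5. Hmgcs1, of the mevalonate pathway, had 0.61 ± 0.12 (FDR 0.0807), fatty acid synthase (Fasn) 0.99 ± 0.24, Dhcr7 0.42 ± 0.12 and Insig1 0.62 ± 0.17. No glycolysis gene among 19 separated the groups, with a median of 0.46, Pfkl at 0.55 ± 0.18, Pfkp at 0.56 ± 0.27, Slc16a3 at 0.87 ± 0.46 and Pdk1 at -0.66 ± 0.25. All 35 chaperone genes had a positive log2 fold change, against 42.1% of all genes and 56.1% of those with at least 10 CPM. Of the 35, 7 did not overlap, against 4.23% and 6.8%, and the median was 0.55. Levels of Hspa9 were 118, 338, 296, 121 and 339.7 CPM in Ag 1 to 5 and 383, 377, 389, 557 and 448 CPM in Ag+Costim 1 to 5. Hspa9, the mitochondrial HSP70, had 0.83 ± 0.29 (FDR 0.106), Hsp90b1 0.89 ± 0.32, Hsph1 0.72 ± 0.27 and Ppid 0.78 ± 0.27.

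Cell cycle genes separated often and tested poorly. All 42 DNA replication genes had a positive log2 fold change, with a median of 0.67, against 42.1% positive over all genes and 56.1% at 10 CPM or more. Of the 42, 13 did not overlap and 7 had an unadjusted p under 0.05, against 4.23% and 7.28% of all genes. Of 44 mitosis genes, 43 were positive, with a median of 0.80, 14 did not overlap (4.23% of all genes) and none had an unadjusted p under 0.05. The CPM of Mki67 in Ag 1 to 5 was 116, 388, 299.7, 111 and 206, and in Ag+Costim 1 to 5 it was 453, 451, 399, 460.3 and 460.2. Mki67 (Ki-67), a marker of cycling cells, had its lowest Ag+Costim library just above Ag 2, while Ag 1 and Ag 4 were several times lower (0.99 ± 0.70, FDR 0.368). Espl1 measured 14.2, 77.7, 96.7, 16.9 and 65.5 CPM in Ag 1 to 5 and 111, 132, 108, 169 and 151 CPM in Ag+Costim 1 to 5. Espl1 (separase) had 1.31 ± 0.77 (FDR 0.283), Kif4 1.19 ± 0.72, Kif23 0.86 ± 0.51 and Ncapd2 0.85 ± 0.53. Rpa1 measured 262, 539, 442, 295 and 519.7 CPM in Ag 1 to 5 and 631, 639, 609, 734 and 679 CPM in Ag+Costim 1 to 5. Rpa1, which coats single-stranded DNA, had 0.68 ± 0.20 (FDR 0.0837), Rfc1 0.63 ± 0.20 and Cdt1 0.85 ± 0.31.

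Interferon-stimulated genes gave 1 of 40 higher without overlap, against 4.23% of all genes, and a median of -0.36. Levels of Ifi204 were 10.8, 10.7, 15.03, 12.5 and 13.6 CPM in Ag 1 to 5 and 16.4, 17.96, 20.7, 16.9 and 15.6 CPM in Ag+Costim 1 to 5. That gene, Ifi204, had 0.49 ± 0.14 (FDR 0.0826). Ifi209 (-1.06 ± 0.37) and Ifi213 (-1.31 ± 0.50) belong to the same cluster of near-identical genes, where reads may be split between copies, and Isg20 had -0.99 ± 0.35. Among 20 trafficking receptors and integrins none separated the groups and the median was 0.02, with Itgav at -0.74 ± 0.23, Cxcr5 at -1.10 ± 0.39, Cxcr4 at 0.52 ± 0.23 and Cxcr6 at -0.28 ± 0.18.

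Splicing genes formed another group in which no member was lower without overlap. All 53 spliceosome genes had a positive log2 fold change, against 42.1% of all genes and 56.1% of those with at least 10 CPM. Their median was 0.33. Of the 53, 12 did not overlap and 22 had an unadjusted p under 0.05 on the higher side, against 4.23% and 7.28% of all genes. At 10 CPM or more those shares were 6.8% and 11.9%. The CPM of Prpf8 in Ag 1 to 5 was 109, 112, 127, 109 and 89.02, and in Ag+Costim 1 to 5 it was 202, 204, 154, 261 and 199. Prpf8, the scaffold of the spliceosome's catalytic centre, had 0.90 ± 0.18 (FDR 0.0807). Prpf19 measured 48.4, 99.7, 112, 53.3 and 107 CPM in Ag 1 to 5 and 155, 158, 196, 178 and 192 CPM in Ag+Costim 1 to 5. Prpf19, a ubiquitin ligase of the spliceosome, had 1.06 ± 0.24 (FDR 0.0807), with Sf3a2 at 0.66 ± 0.17 and Snrnp70 at 0.57 ± 0.15. Of 54 hnRNP and SR regulators, 46 were positive and the median was 0.37. In this list 16 did not overlap and 28 had an unadjusted p under 0.05 on the higher side, against 4.23% and 7.28% of all genes. Among genes with at least 10 CPM these shares were 6.8% and 11.9%. Tra2b measured 131, 236, 166, 142 and 172 CPM in Ag 1 to 5 and 320.2, 324, 291, 371 and 289 CPM in Ag+Costim 1 to 5. Tra2b, an SR-related activator of exon inclusion, came nearest to the threshold of all of them (0.91 ± 0.15, FDR 0.0594). Hnrnpr had 0.45 ± 0.10, Hnrnph2 0.50 ± 0.13 and Celf1 0.43 ± 0.12. Levels of Tardbp were 109, 164, 121, 104 and 134 CPM in Ag 1 to 5 and 153, 160.0, 143, 181 and 168 CPM in Ag+Costim 1 to 5. Tardbp (TDP-43), an RNA-binding protein that represses cryptic exons, overlapped through Ag 2 (0.35 ± 0.13, FDR 0.122).

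Viewed by library, the lists divided the Ag group more than they divided the groups. The mean log2(CPM + 1) of the mitosis list was 5.56, 7.88, 7.53, 5.54 and 7.77 in Ag 1 to 5 and 7.86 to 8.11 in Ag+Costim. For the ribosome biogenesis list it was 5.43, 6.12, 6.01, 5.41 and 6.24 in Ag and 6.31 to 6.58 in Ag+Costim, without overlap. For the naive and memory list it was 7.43, 6.09, 6.49, 7.41 and 6.05 in Ag and 5.75 to 6.27 in Ag+Costim. For the cytotoxic list it was 5.70, 7.54, 7.32, 5.89 and 7.75 in Ag and 7.13 to 7.56 in Ag+Costim. Ag 1 and Ag 4 were the farthest from Ag+Costim in all 4 lists. Ag 2 and Ag 5, the libraries of small input, were the nearest in the first 3, and Ag 5 exceeded every Ag+Costim library in the cytotoxic list. The part of input in these values was not tested. Naive libraries varied as well. Their mean for the mitosis list was 7.53 in Naive 5 and 3.80 to 6.22 in Naive 1 to 4, and this spread entered the shared estimate.

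**Figure D4:**
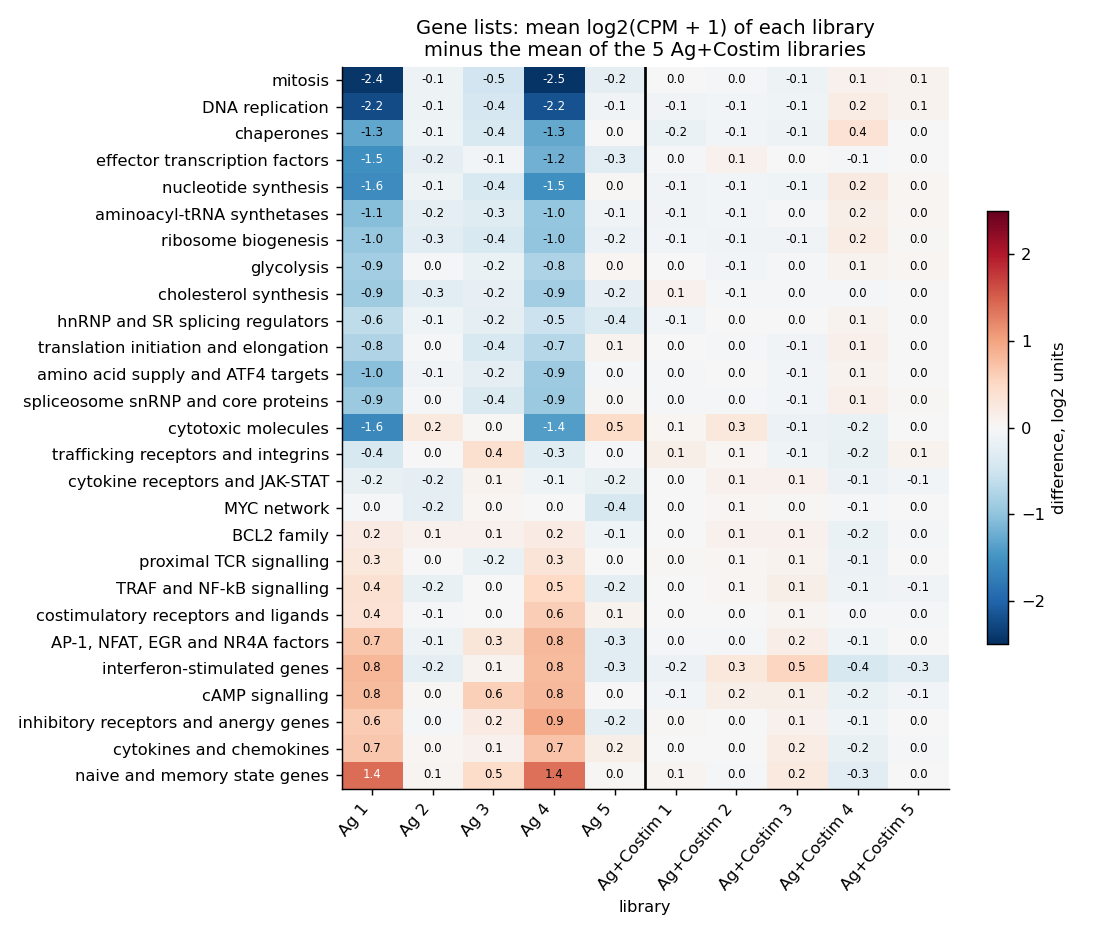
Rows are 27 gene lists ordered by median log2 fold change, columns the 10 libraries, and each cell is the library's mean log2(CPM + 1) over the list minus the mean of the 5 Ag+Costim libraries (red higher, blue lower). Ag 1 and Ag 4 carry the deepest colours, blue for mitosis and DNA replication and red for naive and memory genes, and Ag 2 and Ag 5 are close to 0 in most rows.

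Isoform shares were compared with estimated transcript counts. Of 7501 genes with at least 2 tested transcripts, 70 (0.933%) had a transcript whose share of the gene changed by at least 0.1 with an FDR under 0.05 for both gene and transcript (edgeR diffSpliceDGE, Simes method). Of the 70 transcripts, 32 had the higher share in Ag+Costim, 53 were annotated as protein coding, 7 as targets of nonsense-mediated decay and 5 as retained introns. None of the 70 genes was among the 6 called for level, and Il4ra was the only member of a gene list. Estimates of 0 were common: 22 transcripts were at 0 in every Ag library and 24 at 0 in every Ag+Costim library. Reads were single and 50 bases long, and the part of read length in these estimates was not tested.

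The 8 largest changes in genes with at least 100 counts are given by library. The share of Kif21b-201 in its kinesin gene was 0 in all 5 Ag libraries and 0.971, 0.959, 0, 0.969 and 0.980 in Ag+Costim 1 to 5 (gene FDR 0.0075). Orai2-202, of a store-operated calcium channel gene, had 0.877, 0, 0.0143, 0.601 and 0.967 in Ag and 0 in all Ag+Costim libraries (gene FDR 3.36e-05). Syce2-204 was the only one of the 8 without overlap, at 0 in Ag and 0.513, 0.455, 0.412, 0.483 and 0.309 in Ag+Costim (gene FDR 0.0075), and Syce2 encodes a synaptonemal complex protein. Pdlim2-210, of a gene that limits NF-kB, had 0.823, 0.0026, 0.642, 0.641 and 0.0062 in Ag and at most 0.0053 in Ag+Costim (gene FDR 0.0024). The others were Pou2f1-205 (change -0.47), Dennd1b-208 (-0.46), Usp45-201 (-0.43) and Ptrh2-201 (0.42). Of all 70, 10 transcripts were higher and 4 lower without overlap; among these, chosen after their values were seen, Cdk7-205 of the cyclin-dependent kinase Cdk7 was at 0 in Ag and at 0.182, 0.305, 0.425, 0.232 and 0.246 in Ag+Costim.

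**Figure D5:**
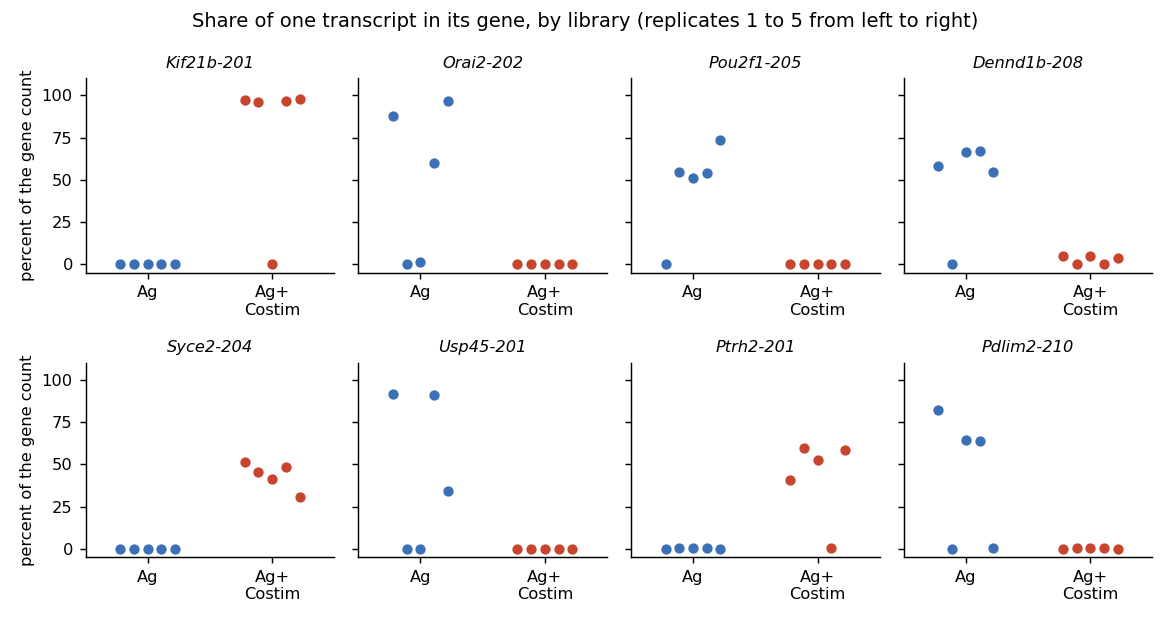
Each panel gives the percent of a gene's count assigned to 1 transcript in the 5 Ag (blue) and 5 Ag+Costim (red) libraries, replicates 1 to 5 from left to right. Most panels have points at 0 in both groups or points that jump between 0 and a high share, and only Syce2-204 has its groups apart.

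Shares by annotation type were taken over all counts of a library. They hold the mix of expressed genes as well as isoform choice, and these were not separated. Protein-coding transcripts took 79.3, 85.0, 80.7, 80.7 and 85.1% of counts in Ag 1 to 5 and 85.2, 85.6, 85.7, 86.5 and 86.1% in Ag+Costim 1 to 5. The groups did not overlap, and the mean difference was 3.64 percentage points (exact permutation test, two-sided, p = 0.00794, adjusted over 4 types 0.0317). Ag 1, 3 and 4, with the lowest shares, had 37.4, 16.9 and 44.3% of their reads counted in genes, against 52.4 and 53.6% for Ag 2 and Ag 5. The part of this in the difference was not tested. Retained-intron transcripts took 6.08, 3.08, 5.02, 5.79 and 2.48% in Ag and 3.53, 3.42, 3.06, 2.69 and 3.03% in Ag+Costim, which overlapped (exact permutation p = 0.143, adjusted 0.19). Processed transcripts differed by -0.18 percentage points (exact permutation p = 0.0238, adjusted 0.0476), and targets of nonsense-mediated decay by -0.14 (exact permutation p = 0.389, adjusted 0.389).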

How the data were processed

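RNA of sorted OT-I CD8+ T cells was made into SMART-Seq v4 and Nextera XT libraries and read as single 50-base reads. The deposited gene and transcript tables hold estimated counts, whole numbers that the authors derived with StringTie 2.1.0 after HISAT2 2.1.0 alignment to mm10 and SAMtools 1.9, by the submitters' processing notes and the methods. These notes also name R 4.0.5 and DESeq2 1.30.1. Total read counts, complexity (percent) and lane come from the deposited quality table, whose definitions are not given in the sources used here. FPKM values and a sample sheet were not used. Of 81881 gene entries, 55536 were matched to GENCODE M21, and 26248 entries named by a number, which held 0.0818% of counts, were left out with 97 spike-in entries that held no count.

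The 15 libraries (5 Ag, 5 Ag+Costim, 5 Naive) were fitted with edgeR 4.0.16 in R 4.3.3 (filterByExpr, TMM, robust quasi-likelihood, Benjamini-Hochberg FDR under 0.05 over all genes, two-sided), and standard errors came from the F statistic. DESeq2 1.42.0 and limma 3.58.1 gave alternatives, as did other scalings, filters, lanes, a replicate block and leaving out each library. Genes without overlap are described, with no test of their own. CPM is compared between libraries and not between genes. Scripts were tested on simulated data.

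Genes were named by rule: all called genes, the 12 highest and 12 lowest log2 fold changes among genes with no overlap, an unadjusted p under 0.05 and at least 10 CPM (without pseudogenes, predicted genes and receptor segments), 22 genes of receptors and T cell state (1 of them is not reported here), and up to 4 members per list with the smallest p at 10 CPM or more. Other names were chosen after their values were seen. Members and lists were chosen with earlier results of these data known. Cdv3 was taken out of the ribosome biogenesis list after values were seen, since it has no established role there. Promoter windows are from RefSeq (GRCm38.p6).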

Additional observations from a re-analysis of the deposited data

Results flagged for a closer look

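Within groups of 5 libraries, 348 sets of values were looked at for a single library far from the others by Dixon's criterion, which chance meets in about 1 of 20 sets (5%), and 17 sets (4.89%) met it, 6 in Ag and 11 in Ag+Costim. In Ag, Ag 3 had 67.37% of its alpha-chain variable counts in Trav14. Ag 5 was the highest of its group for Traf2, at 86.83 CPM, and the lowest for Stat5b, at 89.33 CPM. Ag 1 was the lowest for Il2rb, at 808.6 CPM, and Ag 3 stood apart for Fasn, at 127 CPM, and for Cd247, at 217.8 CPM.

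Ag+Costim 4, one of the libraries run in lane 3, was the highest for Nop58 (302.7 CPM), Ruvbl1 (135.7 CPM), Eif4g1 (323.8 CPM), Slc7a6 (58.39 CPM) and Cxcr4 (30.56 CPM), and the lowest for Rapgef4 (0.7786 CPM). Ag+Costim 3 was the lowest for Mki67 (398.6 CPM) and Kif23 (185 CPM) and the highest for Tdrp (12.02 CPM). Ag+Costim 5 was the highest for Rnasek (9.453 CPM) and the lowest for Insig1 (18.28 CPM). The part of the lane in these values was not tested.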

How the results depend on the processing

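The count of 6 called genes depended on the fit. It was 0 within lane 2 (1185 genes at an unadjusted p under 0.05), 0 with only the 10 libraries in the fit (3317), 0 with lane as a term (2334) and 0 with the replicate block (4131), whereas DESeq2 called 2533 genes and voom with sample quality weights 9979. Leaving out 1 library gave 0 to 3573 calls, namely 3573 when Ag 5 was left out, 2679 for Ag 2, 115 for Ag 3, 1 for Ag 4, 2 for Ag+Costim 1 and 0 for Ag 1 and for each of Ag+Costim 2 to 5 (3339 to 4418 at an unadjusted p under 0.05 in those 5 fits). All 6 genes were among those called with RLE, library totals, DESeq2 and voom and without Ag 2, 3 or 5. Of the named genes, 4 changed sign, none of them past the threshold with all 15 libraries in edgeR or where its sign differed. Nfkb1 became 0.173 with no filter and ranged from -0.128 to 0.030 without 1 library, and Nfkb2 became -0.088 with voom. Il2 became 0.161 with no filter, 0.018 within lane 2, 0.003 with lane as a term, 0.006 with the replicate block, 0.045 with voom and ranged from -0.137 to 0.058 without 1 library. Pdcd1 became -0.063 with library totals, -0.080 at 5 CPM or more, -0.002 with 10 libraries, -0.001 with lane as a term and ranged from -0.078 to 0.116 without 1 library. Genes without overlap numbered 2032 with no filter on low counts (1878 higher, 154 lower), and 221 were lower with a mean of at least 5 CPM. Without 1 library they ranged from 1137 to 2589 in all, from 741 to 1703 higher and from 229 to 1266 lower. The 70 genes called for transcript usage became 10 with 10 libraries, 45 with limma (5 shared), 218 with transcripts of at least 1 count, 43 at a share change of 0.2, 125 with no minimum, 22 within lane 2, 21 with the replicate block, and 54 to 128 without 1 library. Same-numbered libraries did not deviate together (r = 0.18, -0.0028, -0.042, -0.34 and 0.040 across genes for numbers 1 to 5, and no library correlated best with its own number), so the numbers were not taken as pairs. The 18 lists with a median beyond 0.3 kept its sign in every alternative, while with no filter the TRAF and NF-kB, proximal TCR signalling, BCL2 and MYC network medians were 0.15, 0.16, 0.21 and 0.27. Why these settings differ was not tested.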
